A study of Mus musculus with 14 samples.

Results

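The genes described here are the secreted and membrane-bound zinc proteases that cut the extracellular matrix, and their tissue inhibitors. They were chosen by symbol alone, as every deposited gene row whose mouse symbol is Mmp, Adamts or Timp followed by a number. The rule found 46 of the 55416 genes listed per library: 23 Mmp, 19 Adamts and 4 Timp genes. RNA was sequenced in bulk from lung and from gastrocnemius (GA), a calf muscle, of male C57BL/6 (C57BL/6NCrlOri) mice that were 6 to 8 weeks old. Tumour-bearing mice (TB in the labels) had received 5000000 KrasIKKaL cells through the trachea, and the labels do not state the treatment of control mice (CON). The groups held 3 control and 5 tumour-bearing lung libraries, and 3 control and 3 tumour-bearing muscle libraries. The injected cells come from 1 line, and a lung library from a tumour-bearing mouse mixes RNA of injected and host cells. The labels do not say that the libraries of a group came from separate animals. The p-values therefore reflect only library-to-library spread, and that spread may be technical.

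Matrix metalloproteases (MMPs) are made as inactive precursors and cut collagens, gelatin, elastin, proteoglycans and other proteins outside the cell. Collagenases open fibrillar collagen, gelatinases digest the unwound chains, stromelysins and matrilysin have broad substrates, and membrane-type MMPs act at the cell surface. ADAMTS proteases are secreted enzymes with thrombospondin repeats, and include the cleavers of aggrecan and versican and the proteinases that trim procollagen. TIMPs, of which the mouse has Timp1 to Timp4, bind the active site of MMPs, and Timp3, which stays bound to the matrix, also blocks ADAM and ADAMTS enzymes.

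A run of 10 Mmp genes lies side by side on chromosome 9, with no other coding gene between them in the GENCODE M21 annotation. Their order is Mmp13, Mmp12, Mmp1b, Mmp3, Mmp1a, Mmp10, Mmp8, Mmp27, Mmp20 and Mmp7, and 1 of them, Mmp1b, is on the minus strand. The run is introduced first because it held 4 of the 9 members that rose in tumour-bearing lung (Mmp13, Mmp10, Mmp20 and Mmp7) and also 2 members that fell (Mmp3 and Mmp27). Of all genes tested in lung, 30.4% rose and 29.3% fell. Mmp10 and Mmp20 passed the filter on low counts through the tumour-bearing libraries alone, and Mmp27 through the controls alone. Such passage favours a call in the direction seen. Promoters of several MMP genes carry an AP-1 site, the motif bound by Fos and Jun proteins. The 250 bases before the annotated start are printed here for the 4 that rose and for Mmp3, 5′ to 3′ from RefSeq on build GRCm38.p6, with the motif TGANTCA in capitals.
Mmp13, chr9:7272264-7272513, plus strand: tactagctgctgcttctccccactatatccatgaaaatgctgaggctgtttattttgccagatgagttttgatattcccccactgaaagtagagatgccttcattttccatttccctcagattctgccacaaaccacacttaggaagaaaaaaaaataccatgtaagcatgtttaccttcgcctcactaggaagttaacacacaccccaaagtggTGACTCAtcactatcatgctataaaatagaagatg
Mmp3, chr9:7445572-7445821, plus strand: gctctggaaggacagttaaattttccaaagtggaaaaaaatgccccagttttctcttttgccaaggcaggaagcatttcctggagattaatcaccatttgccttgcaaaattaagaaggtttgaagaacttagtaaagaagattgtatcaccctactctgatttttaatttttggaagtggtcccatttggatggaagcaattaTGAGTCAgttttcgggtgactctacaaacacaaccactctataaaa
Mmp10, chr9:7502092-7502341, plus strand: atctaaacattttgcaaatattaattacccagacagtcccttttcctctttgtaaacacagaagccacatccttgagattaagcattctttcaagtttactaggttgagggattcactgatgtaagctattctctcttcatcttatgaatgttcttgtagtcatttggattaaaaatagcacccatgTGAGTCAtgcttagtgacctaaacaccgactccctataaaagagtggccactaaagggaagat
Mmp20, chr9:7627981-7628230, plus strand: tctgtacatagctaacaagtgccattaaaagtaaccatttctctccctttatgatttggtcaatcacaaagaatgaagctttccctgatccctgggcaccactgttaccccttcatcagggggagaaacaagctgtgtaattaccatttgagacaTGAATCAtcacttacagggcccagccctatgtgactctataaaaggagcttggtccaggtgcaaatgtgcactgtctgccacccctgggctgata
Mmp7, chr9:7691840-7692089, plus strand: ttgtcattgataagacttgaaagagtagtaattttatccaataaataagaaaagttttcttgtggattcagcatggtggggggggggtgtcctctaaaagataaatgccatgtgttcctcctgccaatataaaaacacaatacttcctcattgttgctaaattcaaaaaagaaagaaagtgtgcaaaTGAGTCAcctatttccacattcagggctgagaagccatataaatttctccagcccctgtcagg
The motif TGANTCA reads the same on both strands, so 1 search covers both. Of the 46 members, 32 had an entry in the promoter table, with 35 windows of 250 bases in all. Of these windows, 8 (22.9%) held TGANTCA, against 2217 (6.75%) of the 32851 windows of the same length in the whole table. All 8 belonged to the chromosome 9 run, 1 for each of 8 of its 10 genes, and none of the other 23 member windows held it. In the run, the 4 genes that rose carried the motif, and of the 2 that fell Mmp3 carried it and Mmp27 did not. The other carriers were Mmp12, not called in lung, and Mmp1a and Mmp1b, not tested. Outside the run, Mmp14, Mmp24, Timp1 and Adamts12 also rose in lung, and their windows lacked the motif. Adamts4, which rose too, had no window. N stands for any base, which makes the pattern looser than the usual AP-1 site, with C or G there. The base was A in Mmp20, and C or G in Mmp13, Mmp3, Mmp10 and Mmp7. All shares given for TGANTCA use the looser pattern. The TATA motif TATAAA, searched on both strands, was in 9 member windows (25.7%) and in 12.4% of all windows. The matches describe these letters only, and no binding was measured.

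In lung, 41 of the 46 members had enough counts to be tested. The test was edgeR's quasi-likelihood test on the rounded expected counts, with Benjamini-Hochberg adjustment over all 19300 genes tested, with calls made under 0.05, and gave every adjusted p for lung. Levels are given in CPM, the counts scaled to a common library size within each tissue, as mean ± SD. Lung and muscle CPM are therefore not on 1 scale. Changes are given as log2 of tumour-bearing over control with the standard error (SE). Members called numbered 33 of 41, 9 higher and 24 lower, and 8 did not pass. Over all genes tested 59.7% were called, 30.4% higher and 29.3% lower (5862 and 5651 genes; 3631 and 8174 with limma on log2(TPM + 1), where the median of all genes was -0.20). The share of members called lower was thus 58.5% and the share called higher 22%. The median change was -2.0 over the members and 0.07 over all genes. The same 33 members were those whose control and tumour-bearing libraries did not overlap, a state shared by 63% of all genes, 30.9% upward and 32.1% downward. Mmp10, Mmp20 and Mmp24 passed the filter on low counts through the tumour-bearing libraries alone, and Mmp16, Mmp27, Adamts3 and Adamts19 through the controls alone. Of the 34 members over the filter in both groups, 6 were higher, 20 lower and 8 not called.

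**Figure D1:**
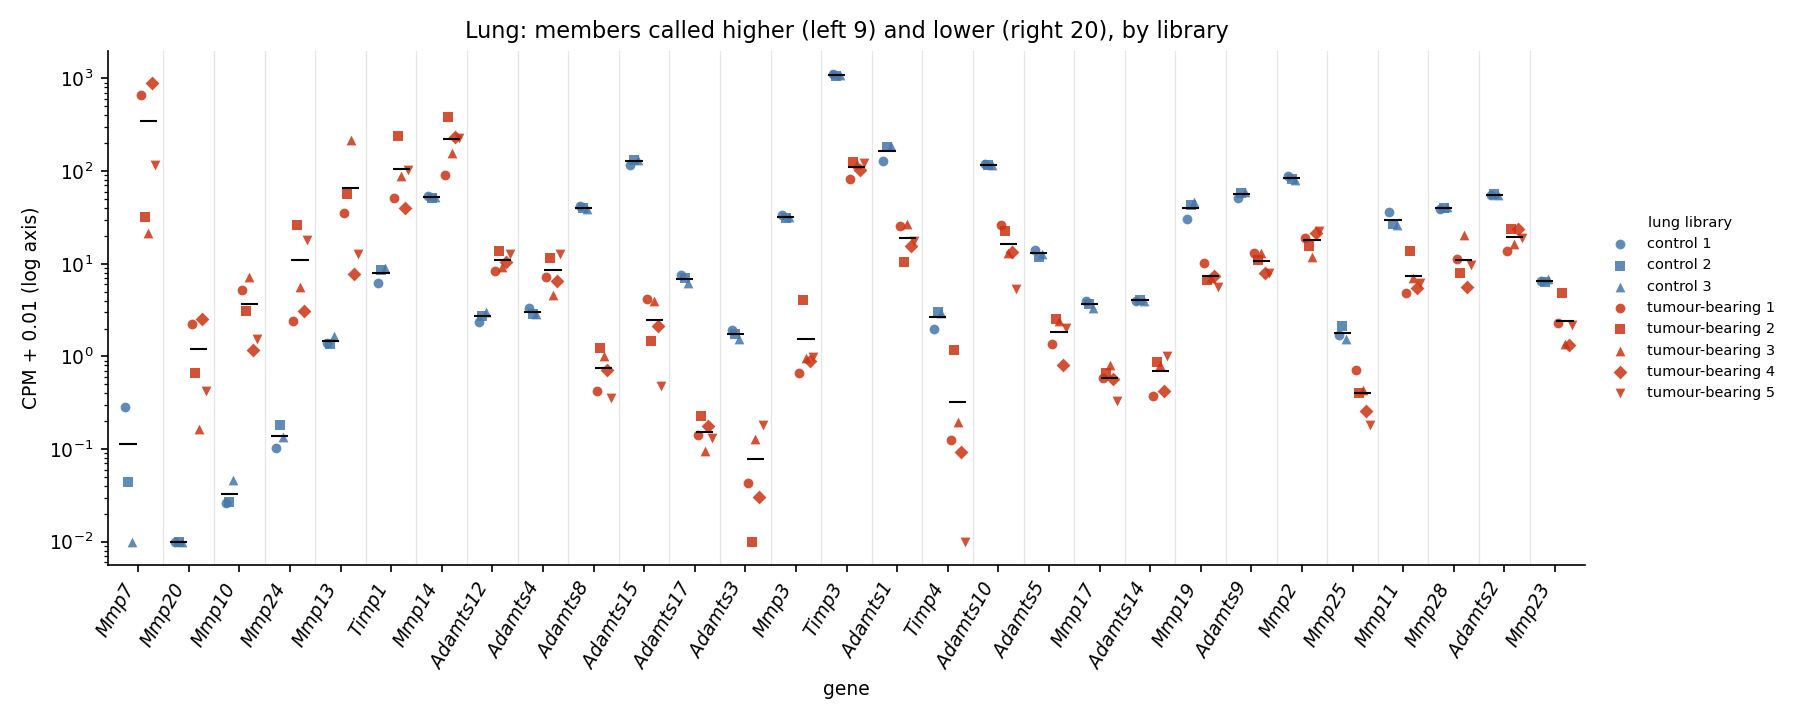
CPM + 0.01 on a log axis for the 9 members called higher and the 20 called lower with a mean of at least 1 CPM in a group, in 3 control (blue) and 5 tumour-bearing (red) lung libraries; marker shapes give the library number and black lines the group mean. The 2 colours do not overlap for any gene shown, and red points spread widely for Mmp7, Mmp13, Mmp24 and Timp1.

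Markers of the lung's own cells differed strongly between the groups. The summed level of 8 endothelial markers was 2962 to 3109 CPM in control and 150 to 180 CPM in tumour-bearing libraries, and that of 10 fibroblast markers 939.6 to 1062 and 89.7 to 244 CPM; all 8 and 7 of the 10 fell. Alveolar type 2 markers (8 genes) summed to 22344 to 24372 and 142 to 1238 CPM, and all 8 fell. The sum of 7 general epithelial markers was higher instead, at 1664 to 1698 and 12827 to 23621 CPM, with 6 markers that rose and 1, Nkx2-1, that fell (-4.48). Macrophage and monocyte markers (10 genes) summed to 341 to 372 and 388 to 555 CPM, and neutrophil markers (10 genes) to 97.8 to 201 and 85.8 to 161 CPM. Of the macrophage and monocyte markers 1 rose and 3 fell, and of the 9 neutrophil markers tested 1 rose and 5 fell (median -1.32). Alveolar macrophage markers (6 genes) summed to 485 to 1313 and 50.7 to 1168 CPM, and 4 fell and 0 rose. No marker of these lists was at 0 in either lung group. In bulk RNA, fewer cells of a type and less RNA per cell cannot be told apart, and the part these shifts have in the lung results was not tested. Total counts were 47947363 to 61087315 per lung library and 32476194 to 44169410 per muscle library.

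Among the collagenases, Mmp13 rose in every tumour-bearing lung library. Control lung had 1.38, 1.35 and 1.63 CPM and tumour-bearing lung 35.4, 56.0, 219, 7.72 and 12.9 CPM. Every tumour-bearing library was above every control, and library 3 stood far above the other four. The change was 5.51 (SE 1.23, adjusted p = 0.00405) and was 4.27 without tumour-bearing library 3. Mmp8, the neutrophil collagenase, did not pass, at 3.66 ± 0.553 CPM (n = 3) against 2.29 ± 0.782 CPM (n = 5; -0.67, SE 0.34, adjusted p = 0.12). Mmp1a and Mmp1b, the mouse counterparts of interstitial collagenase, were not tested. Mmp1a was at 0 in all controls and had 10, 2, 6, 1 and 14 counts in tumour-bearing libraries, at least 2.61-fold higher against a floor of 3 counts per library. Mmp1b had 1 count in the 8 lung libraries. The split of reads between these related genes was not tested.

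The gelatinases went separate ways. Mmp2, the main gelatinase of fibroblasts, fell from 88.5, 82.7 and 80.3 CPM to 18.9, 15.6, 11.8, 21.5 and 22.8 CPM. The groups were well apart, with a change of -2.21 (SE 0.21, adjusted p = 3.92e-05). Mmp9, the gelatinase of neutrophils and macrophages, had 5.65, 7.34 and 6.92 CPM in control and 4.03, 10.5, 10.8, 6.79 and 4.09 CPM in tumour-bearing lung. Its groups overlapped, and the change was 0.13 (SE 0.39, adjusted p = 0.79). Its sign turned without tumour-bearing library 2 (-0.02) or 3 (-0.06).

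The stromelysins moved in opposite directions. Mmp3, the matrix stromelysin of mesenchymal cells, fell from 33.8, 30.8 and 31.8 CPM to 0.655, 4.09, 0.954, 0.890 and 0.979 CPM. The change was -4.41 (SE 0.59, adjusted p = 0.000234), and -5.18 without tumour-bearing library 2, the highest of the 5. Mmp10, the second stromelysin and typical of epithelium, had 1, 1 and 2 counts in controls and 315, 154, 426, 56 and 62 counts in tumour-bearing lung. The 4 control counts against 1013 give a depth-adjusted ratio of 172, with a 95% counting interval of 66.9 to 632. The fitted change was 7.18 (SE 0.93, adjusted p = 0.000194). Mmp11, made mostly by stromal cells around tumours, was lower, at 29.7 ± 5.28 CPM (n = 3) against 7.41 ± 3.60 CPM (n = 5; -2.0, SE 0.34, adjusted p = 0.000902). Exons of Mmp11 overlap those of Chchd10 on the opposite strand, and no source used here gives the strand setting of the counting. Chchd10 also fell in lung, from 89.4 to 5.80 CPM (-3.94, adjusted p = 3.88e-05).

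Mmp7, matrilysin, an enzyme of glandular epithelium, showed the largest fitted change of any member. Control libraries had 0.277, 0.0337 and 0 CPM and tumour-bearing libraries 669, 32.3, 21.6, 905 and 118 CPM. Libraries 1 and 4 were high and libraries 2 and 3 low, yet all 5 were far above the controls. The change was 11.65 (SE 2.10, adjusted p = 0.00129). Of the 19 control counts 17 lay in control library 1, and without that library the change was 14.13; it was 10.95 without tumour-bearing library 4. Mmp12, macrophage elastase, did not pass, with 4.0, 28.4 and 27.1 CPM in control and 74.3, 13.9, 100.1, 51.2 and 49.0 CPM in tumour-bearing lung. Control library 1 and tumour-bearing library 2 were low, the groups overlapped, and the change was 1.54 (SE 0.72, adjusted p = 0.0939).

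Of the 6 membrane-type enzymes, 2 rose, 3 fell and 1 did not pass. Mmp14, the main surface collagenase and activator of proMMP2, had 54.4, 51.4 and 52.3 CPM in control and 90.4, 386, 159, 233 and 231 CPM in tumour-bearing lung. Library 1 was lowest and library 2 highest, and none overlapped the controls (2.06, SE 0.42, adjusted p = 0.00248). Mmp24, an enzyme best known from neural tissue, had 0.0916, 0.171 and 0.124 CPM against 2.37, 26.5, 5.59, 3.09 and 17.9 CPM. It was highest in libraries 2 and 5 (6.38, SE 1.08, adjusted p = 0.000915), and its change was 5.77 without library 2. Exons of Mmp24 overlap BC029722 on the other strand, which had 32.0 and 34.6 CPM in the 2 groups and was not called (adjusted p = 0.651). Mmp17 fell from 3.63 ± 0.325 CPM (n = 3) to 0.581 ± 0.176 CPM (n = 5; -2.63, SE 0.33, adjusted p = 0.000166). Mmp25, known from leukocytes, fell from 1.78 ± 0.290 CPM (n = 3) to 0.389 ± 0.205 CPM (n = 5; -2.17, SE 0.44, adjusted p = 0.00247). Mmp16, under 1 CPM throughout, fell by 2.81 (adjusted p = 0.011). Mmp15 was not called, with 174, 183 and 180.4 CPM in control and 148, 24.2, 28.6, 208 and 16.3 CPM in tumour-bearing lung. Its libraries 1 and 4 lay near the controls and the other three far below (-1.08, SE 0.78, adjusted p = 0.26). Libraries 1 and 4 were also the highest for Mmp7.

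The other MMPs mostly fell. Mmp20, enamelysin, known from tooth enamel, was the exception: it was at 0 in the 3 controls and had 135, 33, 9, 121 and 17 counts in tumour-bearing libraries. Again libraries 1 and 4 were highest, at 2.21 and 2.51 CPM. The group mean was at least 23.2-fold higher against a floor of 3 counts per library (adjusted p = 0.00403), and its call was lost on log2(TPM + 1), with limma's adjusted p = 0.0784. Mmp19 fell from 40.1 ± 8.29 CPM (n = 3) to 7.34 ± 1.72 CPM (n = 5; -2.45, SE 0.23, adjusted p = 3.46e-05). Mmp28, epilysin, known from epithelium, fell from 40.3 ± 1.03 CPM (n = 3) to 11 ± 5.75 CPM (n = 5; -1.87, SE 0.36, adjusted p = 0.00191). Mmp23 fell from 6.53 ± 0.258 CPM (n = 3) to 2.37 ± 1.43 CPM (n = 5; -1.46, SE 0.43, adjusted p = 0.0163), a call lost without control library 3 (adjusted p = 0.0511). Mmp27, under 1 CPM, fell by 2.17 (adjusted p = 0.0178), and Mmp21, with 3 counts in control and 2 in tumour-bearing lung, was not tested.

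**Figure D2:**
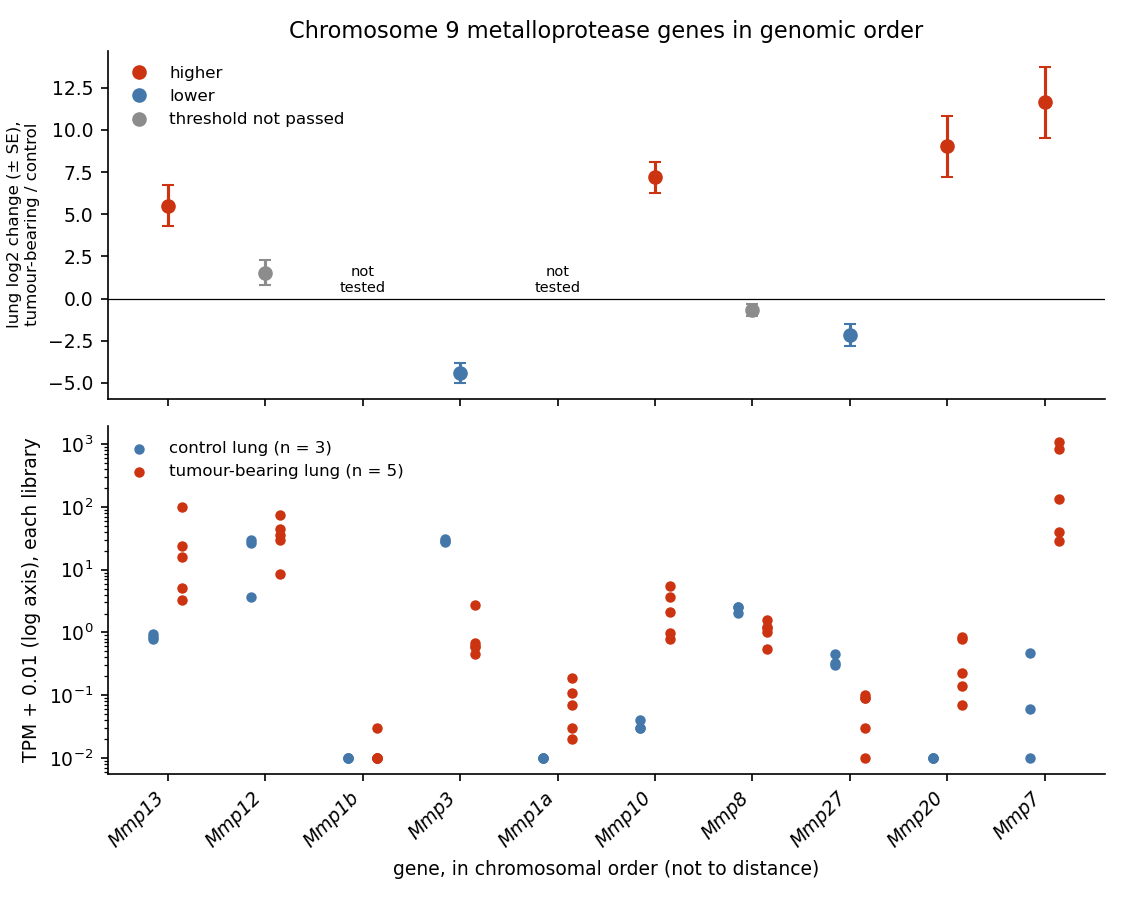
The 10 neighbouring Mmp genes of chromosome 9 in order: above, the lung log2 change ± SE (red higher, blue lower, grey not past the threshold); below, TPM + 0.01 on a log axis in each lung library (3 control in blue, 5 tumour-bearing in red). Mmp13, Mmp10, Mmp20 and Mmp7 rose between neighbours that fell (Mmp3, Mmp27), did not pass (Mmp12, Mmp8) or were not tested (Mmp1b, Mmp1a).

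In lung, Timp1 rose, Timp3 and Timp4 fell and Timp2 did not pass. Timp1, the inducible soluble inhibitor, had 6.23, 8.62 and 9.01 CPM in control and 50.9, 240.2, 88.6, 39.8 and 102 CPM in tumour-bearing lung. All 5 tumour-bearing libraries exceeded the controls, library 2 the most (3.71, SE 0.63, adjusted p = 0.000902). Timp3 fell from 1115, 1065 and 1088 CPM to 82.5, 125, 119.5, 103 and 123 CPM. This was the smallest adjusted p of any member in lung (-3.30, SE 0.18, adjusted p = 2.36e-06), and the 5 tumour-bearing libraries lay close together. Timp2, the inhibitor that also helps Mmp14 activate proMMP2, had 547, 505 and 499 CPM against 298, 517, 693, 431 and 548 CPM. Its groups overlapped (-0.06, SE 0.25, adjusted p = 0.859), and the sign turned without tumour-bearing library 1 (0.10) or 4 (0.01). Timp4 fell from 2.64 ± 0.569 CPM (n = 3) to 0.311 ± 0.485 CPM (n = 5; -3.07, SE 1.02, adjusted p = 0.0275). Exons of Timp4 overlap those of Syn2 on the other strand, which fell from 4.89 to 0.638 CPM (-2.93, adjusted p = 3.26e-05). The part of Syn2 reads in the Timp4 value was not tested. The Timp4 call was lost without control library 1, 2 or 3 or tumour-bearing library 1, 3 or 4 (adjusted p 0.0534, 0.0714, 0.0695, 0.0556, 0.054 and 0.0549), and the change was -4.66 without library 2.

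Per unit of transcript length (the deposited TPM), the make-up of the inhibitor pool shifted in lung. In control lung (n = 3), Timp3 made up 60.3 ± 0.467% of the TPM of the 4 Timp genes, Timp2 36.5 ± 1.12% and Timp1 2.98%. In tumour-bearing lung (n = 5), Timp1 made up 44.0 ± 13.7%, Timp2 47.6 ± 11.8% and Timp3 8.33%. The lowest Timp1 share in a tumour-bearing library, 29.3%, was above that of every control. The summed Timp TPM was 582 ± 28.1 in control and 348 ± 159 in tumour-bearing lung, with library 2, at 583, inside the control range of 563 to 614. In muscle the shares of controls were 46.1% Timp2, 34.8% Timp3, 12.5% Timp4 and 6.54% Timp1. In tumour-bearing muscle they were 29.4%, 42.9%, 24.0% and 3.72% in the same order. These shares are descriptions without a test.

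**Figure D3:**
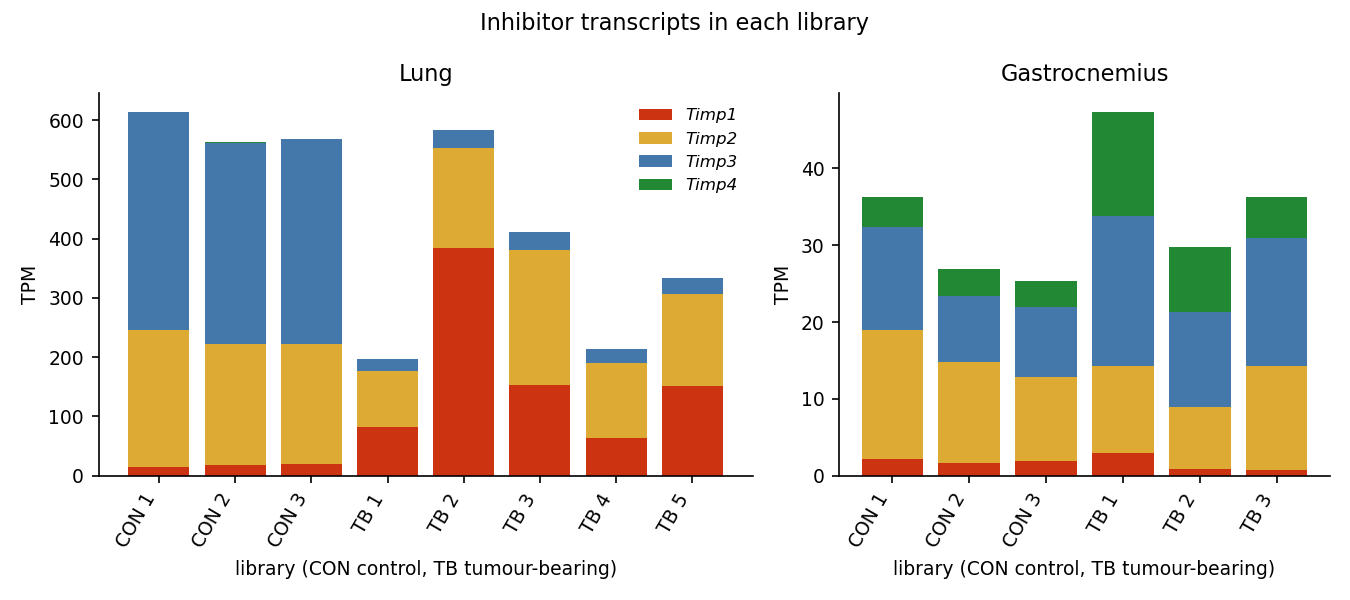
TPM of Timp1 to Timp4, stacked for each library of lung (left) and gastrocnemius (right); CON is control and TB tumour-bearing, and the 2 panels have separate axes from 0. Timp3 (blue) is the largest part of each control lung bar, and Timp1 (red) is a visible part of every tumour-bearing lung bar.

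The ADAMTS genes were mostly lower in tumour-bearing lung: of 17 tested, 12 fell, 2 rose and 3 did not pass. Their summed TPM was 192 ± 6.22 in control (n = 3) and 22.3 ± 4.17 in tumour-bearing lung (n = 5), with every tumour-bearing library between 17.5 and 27.5. The summed Mmp TPM, in contrast, was 271.5 ± 6.22 in control and 648 ± 472 in tumour-bearing lung. Without Mmp7 the sums were 271.4 ± 6.44 and 227 ± 56.3. Tumour-bearing libraries 1 and 4 had Mmp sums of 1011 and 1297 and the other three 298 to 323.

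Among the proteoglycanases, 6 of 7 fell. Adamts8 had 42.4, 39.6 and 38.8 CPM in control and 0.409, 1.23, 0.988, 0.702 and 0.343 CPM in tumour-bearing lung (-5.77, SE 0.41, adjusted p = 8.84e-06). Its neighbour on chromosome 9, Adamts15, had 117, 133 and 134 CPM against 4.17, 1.45, 3.99, 2.11 and 0.465 CPM (-5.70, SE 0.59, adjusted p = 5.70e-05). These 2 adjacent genes had the largest negative changes of the members, but Adamts17, on chromosome 7, was within their SE at -5.56. Adamts1, a versican cleaver, fell from 166 ± 33.5 CPM (n = 3) to 19.2 ± 6.88 CPM (n = 5; -3.11, SE 0.30, adjusted p = 4.08e-05). Adamts5, an aggrecanase that lies beside Adamts1 on chromosome 16, fell from 12.9 ± 1.08 CPM (n = 3) to 1.82 ± 0.728 CPM (n = 5; -2.83, SE 0.36, adjusted p = 0.000191). Adamts9 fell from 56.3 ± 4.31 CPM (n = 3) to 10.6 ± 2.66 CPM (n = 5; -2.40, SE 0.22, adjusted p = 2.89e-05). Adamts20, under 1 CPM, fell by 2.67 (adjusted p = 0.0103). Adamts4, the other main aggrecanase, rose instead, from 3.32, 2.86 and 2.89 CPM to 7.25, 11.6, 4.55, 6.44 and 12.7 CPM (1.49, SE 0.38, adjusted p = 0.0076).

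All 3 procollagen N-proteinases fell. Adamts2, the chief one for fibrillar collagens, went from 55.8 ± 0.923 CPM (n = 3) to 19.4 ± 4.51 CPM (n = 5; -1.52, SE 0.20, adjusted p = 0.000215). Adamts14 went from 4.02 ± 0.0757 CPM (n = 3) to 0.686 ± 0.284 CPM (n = 5; -2.55, SE 0.39, adjusted p = 0.000478). Adamts3 went from 1.73 ± 0.188 CPM (n = 3) to 0.0688 ± 0.0731 CPM (n = 5; -4.65, SE 0.75, adjusted p = 0.000693).

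The remaining ADAMTS genes split. Adamts12 rose, from 2.36, 2.71 and 3.0 CPM to 8.38, 13.7, 9.13, 10.4 and 12.8 CPM, with all 5 tumour-bearing libraries close together (2.02, SE 0.26, adjusted p = 0.000199). Adamts10, which acts at fibrillin microfibrils, fell from 118 ± 1.18 CPM (n = 3) to 16.2 ± 8.40 CPM (n = 5; -2.86, SE 0.42, adjusted p = 0.000399). Adamts17 fell from 6.90 ± 0.726 CPM (n = 3) to 0.144 ± 0.0502 CPM (n = 5; -5.56, SE 0.35, adjusted p = 4.65e-06). Adamts19, under 1 CPM, fell by 2.79 (adjusted p = 0.000716). Adamts6, Adamts7 and Adamts13, the last being the von Willebrand factor cleaver, had changes of 0.72, 0.59 and 1.28 and did not pass (adjusted p = 0.247, 0.17 and 0.364). Adamts16 and Adamts18 were not tested: Adamts16 was at 0 in controls and had 38 counts over the tumour-bearing libraries, at least 2.92-fold higher, and Adamts18 had 21 control counts and 1 tumour-bearing count.

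In gastrocnemius, 27 members were tested and 5 were called: Mmp11 and Adamts9 rose, and Adamts5, Adamts10 and Adamts12 fell. Over all 14373 genes tested 15.3% were called, 8.53% higher and 6.75% lower (1226 and 970 genes; 760 and 1079 with upper-quartile scaling, which set the median of all genes at -0.25). The members' own shares were 7.41% higher and 11.1% lower, near those of all genes. Groups did not overlap for 9 members (33.3%), 2 upward and 7 downward, against 43.1% of all genes, 21.1% upward and 22% downward. The median change was -0.41 over members and -0.03 over all genes. Each of the 5 was lost without any 1 of the 3 control libraries and on log2(TPM + 1), and with those libraries left out in turn the genes called over the whole table fell from 2196 to 243, 141 and 106. Without tumour-bearing libraries 1, 2 and 3 the genes called numbered 1432, 4513 and 1129, and the members called 1 higher and 1 lower, 4 and 4, and 1 and 2.

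Mmp11 had 1.70, 1.35 and 1.98 CPM in control and 5.41, 3.78 and 3.24 CPM in tumour-bearing muscle. The groups did not overlap (1.31, SE 0.34, adjusted p = 0.0351). On the deposited TPM scale its means were 2.65 ± 1.05 and 2.87 ± 0.396 (n = 3 each), and the change on log2(TPM + 1) was 0.12 with limma's adjusted p = 0.874. Its antisense neighbour Chchd10 was far more abundant than Mmp11 in muscle, at 776 and 546 CPM, and was not called (edgeR, adjusted p = 0.269). The part of Chchd10 reads in the Mmp11 value was not tested. The Mmp11 call was also lost with upper-quartile scaling (adjusted p = 0.0631) and without tumour-bearing library 1 (0.0664), and without control libraries 1, 2 and 3 the adjusted p was 0.109, 0.163 and 0.105.

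Adamts9, another versican cleaver, had 2.76, 3.31 and 4.45 CPM in control and 6.66, 8.11 and 11.6 CPM in tumour-bearing muscle (1.33, SE 0.33, adjusted p = 0.0326). The lowest tumour-bearing library was above the highest control. The call was lost with upper-quartile scaling (adjusted p = 0.0672), without tumour-bearing library 3 (0.0669), without control libraries 1 to 3 (0.117, 0.138 and 0.088) and on log2(TPM + 1), where the change was 0.57 (limma's adjusted p = 0.143).

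Adamts5, a cleaver of versican and aggrecan, fell from 20.2, 20.5 and 21.3 CPM to 4.36, 7.72 and 9.96 CPM. The controls lay within about 1 CPM of each other and all tumour-bearing libraries were below them (-1.49, SE 0.33, adjusted p = 0.0234). The adjusted p was 0.0748, 0.0914 and 0.0935 without control libraries 1, 2 and 3, and the change was -0.67 on log2(TPM + 1) (limma's adjusted p = 0.165).

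Adamts10 fell from 6.36, 9.02 and 14.5 CPM to 1.85, 4.79 and 3.94 CPM, with no overlap (-1.50, SE 0.44, adjusted p = 0.0486). It was lost without control libraries 1 to 3 (adjusted p = 0.0752, 0.125 and 0.18), without tumour-bearing libraries 1 and 3 (0.0898 and 0.0879) and on log2(TPM + 1) (limma, 0.149). Adamts12 fell from 2.60, 1.89 and 2.32 CPM to 0.973, 1.13 and 0.579 CPM, again with no overlap (-1.33, SE 0.38, adjusted p = 0.0482). Its adjusted p was 0.158, 0.139 and 0.145 without control libraries 1 to 3, 0.077 and 0.0816 without tumour-bearing libraries 1 and 3, and 0.348 on log2(TPM + 1), where limma gave a change of -0.16.

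**Figure D4:**
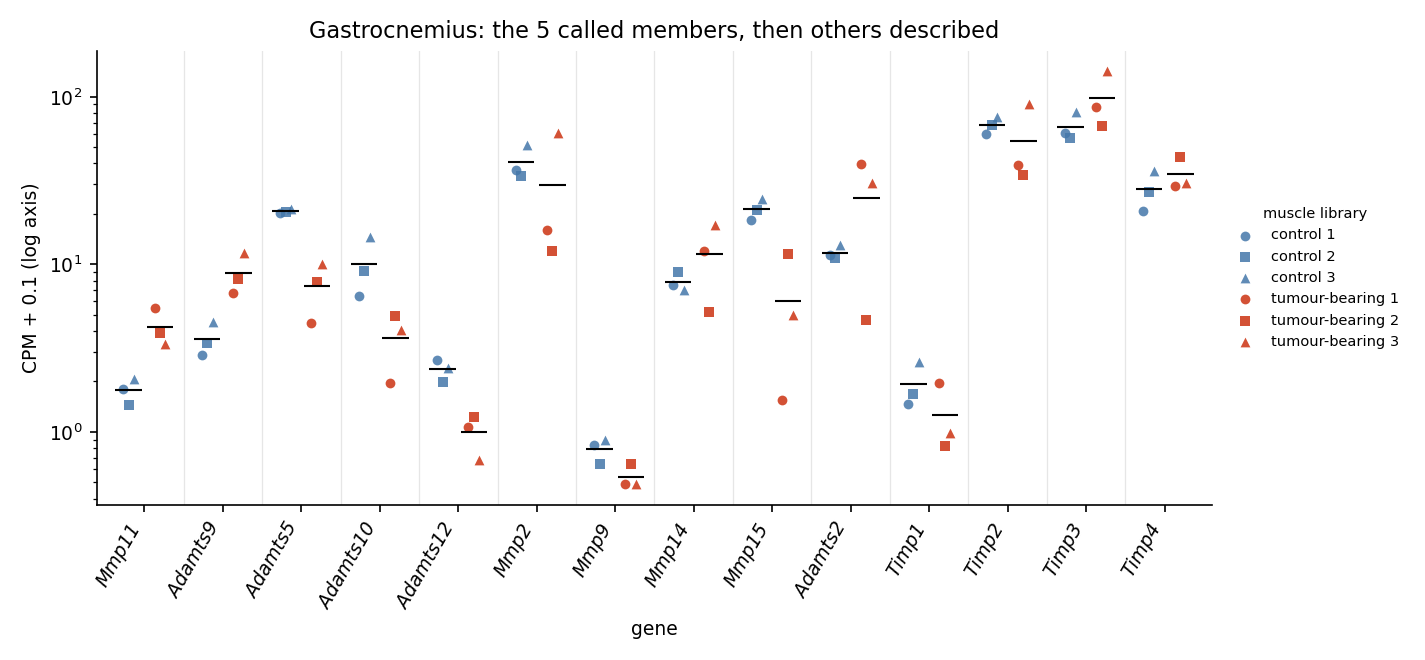
CPM + 0.1 on a log axis for the 5 members called in gastrocnemius (left) and 9 others described in the text, in 3 control (blue) and 3 tumour-bearing (red) libraries; shapes give the library number and black lines the group mean. The colours separate for the 5 called genes and for Mmp15, while tumour-bearing library 3 lies above the other two for Mmp2 and Timp2.

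Mmp2 was the most abundant MMP transcript of control muscle, with 76.3 ± 4.35% of the summed Mmp TPM (n = 3). It had 36.5, 33.5 and 51.4 CPM in control and 15.9, 11.9 and 61.0 CPM in tumour-bearing muscle. Tumour-bearing libraries 1 and 2 were below all controls and library 3 above them (-0.45, SE 0.56, adjusted p = 0.579); without library 3 the change was -1.53 (adjusted p = 0.0411). Fibroblast markers (10 genes) were also highest in tumour-bearing library 3, with summed levels of 550, 690.1 and 943 CPM in control and 452, 377 and 996 CPM in tumour-bearing muscle. The marker with the highest level was Dcn, with means of 524 and 556 CPM. Of the 9 fibroblast markers tested in muscle 6 fell and 0 rose, with a median change of -2.47. Tendon and cartilage markers (7 genes) summed to 130 to 449 and 56.8 to 247 CPM. The part of these cells in the Mmp2 values was not tested.

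Mmp14 had 7.44, 8.93 and 6.88 CPM in control and 12, 5.09 and 17.2 CPM in tumour-bearing muscle (0.56, SE 0.41, adjusted p = 0.351), and passed only without tumour-bearing library 2 (adjusted p = 0.0388, 0.93). Adamts2 was high in tumour-bearing libraries 1 and 3, at 39.6 and 30.6 CPM, and low in library 2, at 4.53 CPM, against 11.2, 10.8 and 12.8 CPM in controls. It did not pass (1.10, SE 0.61, adjusted p = 0.224), and did without library 2 (1.62, adjusted p = 0.00591). Mmp15 had 18.4, 20.9 and 24.3 CPM in control and 1.44, 11.4 and 4.86 CPM in tumour-bearing muscle, without overlap, but the change of -1.84 (SE 0.60) had an adjusted p of 0.0662. Mmp9 was low, at 0.690 ± 0.134 and 0.437 ± 0.0893 CPM (n = 3 each; -0.65, SE 0.44, adjusted p = 0.307).

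No inhibitor passed in muscle. Timp1 had 1.38, 1.59 and 2.51 CPM in control and 1.87, 0.720 and 0.888 CPM in tumour-bearing muscle (-0.63, SE 0.47, adjusted p = 0.349). Timp2 had 59.7, 67.9 and 75.6 against 39.0, 34.1 and 90.0 CPM (-0.32, SE 0.38, adjusted p = 0.57). Timp3 had 60.7, 56.6 and 80.6 against 86.3, 67.1 and 142 CPM (0.58, SE 0.33, adjusted p = 0.235). Timp4, the inhibitor typical of heart and skeletal muscle, had 20.7, 26.9 and 36.2 against 29.1, 43.7 and 30.4 CPM (0.30, SE 0.30, adjusted p = 0.494). The groups overlapped for all 4.

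The other 13 tested members did not pass in muscle, with changes from -1.93 (Mmp23) to 0.79 (Adamts4). Of the 19 untested members, Adamts16 was at 0 in the 3 tumour-bearing muscle libraries and had 10, 8 and 8 counts in controls, at least 2.99-fold lower against a floor of 3 counts per library. Mmp7, Mmp10, Mmp13 and Mmp20, which rose in lung, had at most 4 counts in any muscle library, and Mmp20 had none, which allows up to 0.116 CPM in the shallowest scaled library. Neutrophil markers (10 genes) summed to 0.537 to 1.48 CPM in control and 5.20 to 5.44 CPM in tumour-bearing muscle, with Mpo and Elane at 0 in both, and the 3 tested rose. Mmp8, made by neutrophils, had 0, 2 and 0 counts in control and 19, 3 and 1 counts in tumour-bearing muscle, a depth-adjusted ratio of 10.7 with a 95% counting interval of 2.65 to 93.7. Mmp8 did not pass the count filter of the muscle fit.

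The tumour effects in the 2 tissues were compared in 1 fit of all 14 libraries, as the lung change minus the muscle change. Of 42 members tested, 20 were called, 4 higher and 16 lower in lung than in muscle. Over all 19834 genes tested 35.6% were called, 16.6% higher and 19% lower. The members more positive in lung were Timp1 (4.33, SE 0.79, adjusted p = 0.000811), Mmp24 (6.08, SE 1.28, adjusted p = 0.00225), Adamts12 (3.33, SE 0.47, adjusted p = 0.000105) and Adamts16, whose fitted value rests on groups at 0. The members most clearly more negative in lung were Timp3 (-3.87, SE 0.35, adjusted p = 3.53e-06), Adamts9 (-3.73, SE 0.38, adjusted p = 7.98e-06), Adamts8 (-6.10, SE 0.72, adjusted p = 2.34e-05), Adamts1 (-3.11, SE 0.42, adjusted p = 7.14e-05) and Adamts15 (-5.78, SE 0.83, adjusted p = 0.000133). Mmp7, Mmp10 and Mmp20, near 0 in muscle, could not be compared in this fit, with SEs far above their changes. Their differences were called in 3, 4 and 3 of the alternative fits. DESeq2's Wald test was among these, with adjusted p = 0.00146, 0.0135 and 0.00495.

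Of the 27 members tested in both tissues, 5 were called in both: Adamts5 and Adamts10 fell in both, and Mmp11, Adamts9 and Adamts12 had opposite calls. Over the 13885 genes tested in both, 6.41% were called in the same direction and 3.05% in opposite directions. For Mmp11 the difference was -3.32 (SE 0.51, adjusted p = 0.000219). Adamts12 was the one member that rose in lung and fell in muscle. The Adamts5 fall was larger in lung by 1.33 (SE 0.49, adjusted p = 0.0485), a call lost in 14 of the 24 alternatives tried, and the Adamts10 difference did not pass (-1.38, SE 0.64, adjusted p = 0.109).

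**Figure D5:**
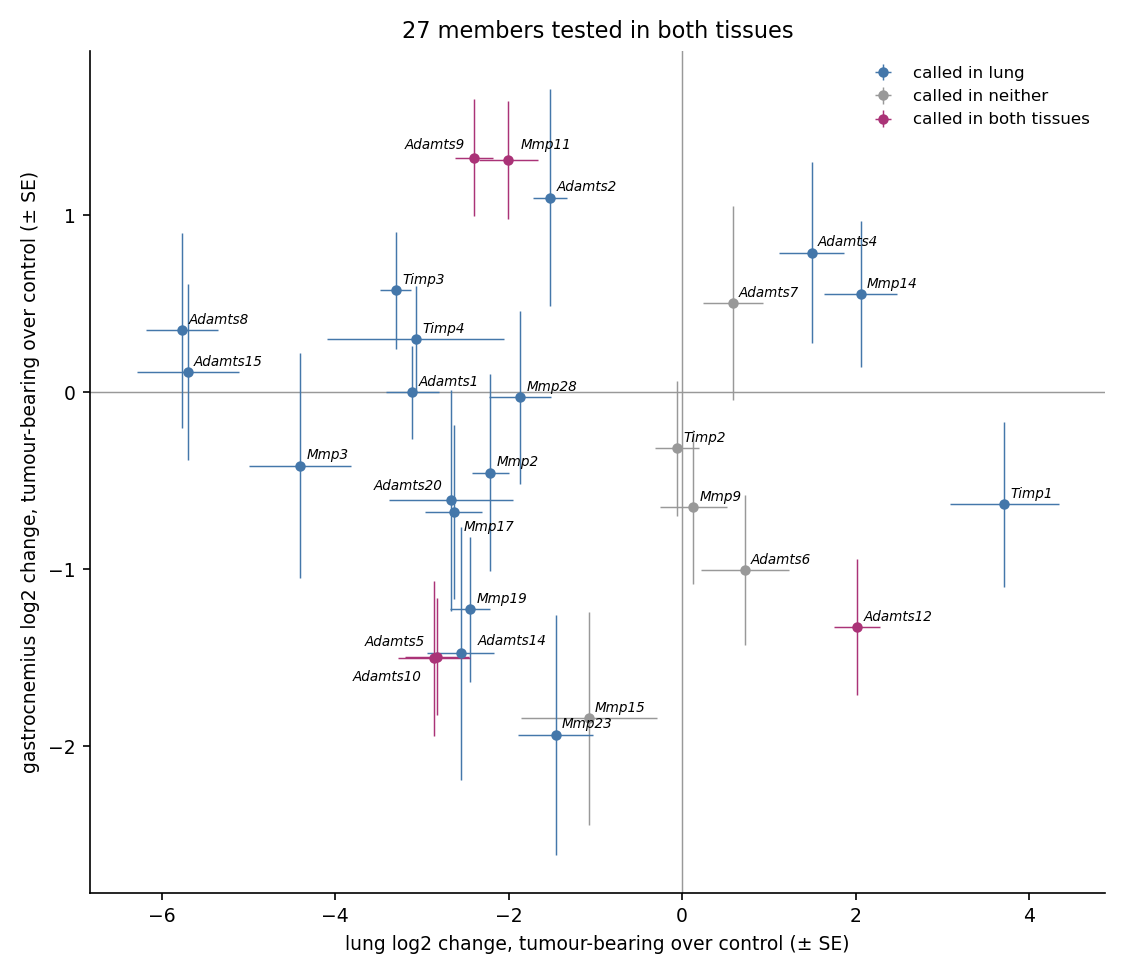
Log2 change ± SE of tumour-bearing over control in lung (horizontal) and gastrocnemius (vertical) for the 27 members tested in both; purple is called in both, blue in lung alone and grey in neither. Most points lie left of 0, and Adamts12, Timp1 and Mmp9 are among those to the right and below 0.

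The control tissues differed for most members. Of 37 tested, 25 were higher in control lung and 6 in control muscle, where over 18053 genes 81.3% were called, 44.9% higher and 36.5% lower in lung. The 6 higher in muscle were Timp4 (-5.18, SE 0.26), Adamts5 (-2.45, SE 0.10), Adamts12 (-1.54, SE 0.19), Adamts20 (-1.19, SE 0.34), Mmp2 (-0.73, SE 0.16) and Adamts16, with adjusted p of at most 0.0109. The CPM printed above were scaled within each tissue, whereas this fit scaled the 6 control libraries together. On the within-tissue scale Mmp2 and Adamts12 had the higher mean CPM in control lung, opposite to these calls. Both calls thus depend on the scaling. On log2(TPM + 1) limma called 32 members higher in lung and 1 in muscle. That scaling also moved the median of all genes to 1.46 in favour of lung. By TPM, 4 of the 6 had the higher mean in lung: Adamts5 (1.76 ± 0.189 against 1.41 ± 0.442), Adamts12 (0.50 ± 0.030 against 0.227 ± 0.0896), Mmp2 (50.5 ± 3.15 against 32.9 ± 7.21) and Adamts20 (0.173 ± 0.0929 against 0.0567 ± 0.0115; n = 3 each). Timp4 and Adamts16 had the higher mean in muscle on both scales. By TPM, control lung led with Timp3 (351 ± 15), Timp2 (213 ± 16.6), Adamts10 (56.1 ± 2.7), Mmp15 (53.1 ± 0.264), Adamts1 (52.9 ± 9.45) and Mmp2 (50.5 ± 3.15), and the last 4 differed by about their spread or less. Tumour-bearing lung led with Mmp7 (421 ± 495), Timp1 (167 ± 128), Timp2 (155 ± 50.4) and Mmp14 (98.4 ± 48.0), whose order does not hold beyond the spread. Control muscle led with Mmp2 (32.9 ± 7.21), Timp2 (13.7 ± 3.03) and Timp3 (10.3 ± 2.66), and tumour-bearing muscle with Timp3 (16.2 ± 3.64), Mmp2 (15.7 ± 12.7), Timp2 (11 ± 2.75) and Timp4 (9.16 ± 4.13).

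Genes that act with these proteases were taken from lists of known partners. Their counts stand beside the shares of all genes tested, 30.4% higher and 29.3% lower in lung and 8.53% and 6.75% in muscle, and with lists this short a few calls in muscle lie near those shares. In the plasminogen system, which activates several MMPs, 8 of 12 tested genes rose and 1 fell in lung. Serpine2, an inhibitor of plasminogen activators, fell there from 108 ± 3.61 to 46.8 ± 4.38 CPM (-1.20, adjusted p = 5.35e-05) and Anxa2, a plasminogen-binding surface protein, rose from 481 ± 15.4 to 2203 ± 629 CPM (2.20, adjusted p = 0.000173). In muscle 2 of 8 rose and 3 fell, among them Serpine2 (-1.52, adjusted p = 0.0239) and Anxa2 (-1.20, adjusted p = 0.0282). Of 19 membrane and plasma regulators, 10 rose and 7 fell in lung; Reck, a membrane-anchored MMP inhibitor, fell from 55.9 ± 2.41 to 1.29 ± 0.676 CPM (-5.43, adjusted p = 9.08e-06), and Pcsk5, a proprotein convertase, fell by 3.42 (adjusted p = 6.25e-06). In muscle 0 of 15 rose and 2 fell, the convertase Pcsk6 (-2.14, adjusted p = 0.00885) and Pcolce, the enhancer of procollagen C-proteinase (-2.20, adjusted p = 0.00917).

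Of 12 ADAM sheddases, 3 rose and 6 fell in lung, with Adam22 (-3.99, adjusted p = 2.09e-05) and Adam19 (-2.12, adjusted p = 3.11e-05) among the latter, and 1 of 10, Adam19, fell in muscle (-1.61, adjusted p = 0.0216), where Adam17 did not pass (-1.19, adjusted p = 0.0604). Of 7 ADAMTS-like proteins, which lack the protease domain, 3 fell in lung, among them Adamtsl1 (-3.60, adjusted p = 1.16e-05) and Adamtsl2 (-4.90, adjusted p = 3.98e-05), and 1 of 6 fell in muscle, Adamtsl5 (-1.32, adjusted p = 0.0408), while Adamtsl4 did not pass (0.88, adjusted p = 0.0642). Of 4 astacins tested in lung, 3 rose, among them Mep1a (6.24, adjusted p = 0.00157), and Tll1 fell (-2.94, adjusted p = 0.000105). Bmp1, the procollagen C-proteinase, fell in muscle from 24.8 ± 6.28 to 6.16 ± 1.66 CPM (-2.01, adjusted p = 0.0108).

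Among 17 collagen and matrix substrates in lung, 4 rose and 5 fell, with Spp1 (osteopontin) at 79.1 ± 13.3 and 2994 ± 1503 CPM (5.24, adjusted p = 0.000102) and Vwf at 446 ± 8.63 and 38.1 ± 13.6 CPM (-3.55, adjusted p = 1.87e-05). In muscle 0 of 18 rose and 7 fell, with Col1a1 from 198 ± 106 to 5.69 ± 2.52 CPM (-5.12, adjusted p = 0.00496) and Col5a1 from 20.3 ± 1.29 to 2.72 ± 0.887 CPM (-2.91, adjusted p = 0.00496). Of 4 lecticans and link proteins tested in lung, Hapln4 rose (4.72, adjusted p = 0.00273) and Bcan fell (-4.88, adjusted p = 0.000298), and the 1 tested in muscle, Vcan, did not pass (-0.76, adjusted p = 0.224). Of 19 transcription factors and cytokines known to induce MMPs, 1 rose and 10 fell in lung. Jun, an AP-1 subunit, fell from 1664 ± 260.4 to 24.0 ± 7.74 CPM (-6.12, adjusted p = 1.56e-06), and Nfkb1 fell by 0.76 (adjusted p = 0.000662). In muscle 1 of 13 rose, Junb (2.88, adjusted p = 0.0204), and 1 fell, Ets1 (-1.55, adjusted p = 0.0216).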

How the data were processed

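The authors deposited, for each of the 14 libraries, RSEM expected counts (estimates that need not be whole) and TPM per gene. Per the submitters' processing notes, reads were handled with Trim Galore, STAR 2.7.9a and RSEM 1.3.3; per the labels, libraries came from a directional kit with reads of 100 bases. No source used here gives the genome build, annotation or strand setting of the counting. For 13 members, exons overlap those of another gene on the opposite strand in GENCODE M21, so reads of the pair cannot be told apart without strand. Besides Mmp11 and Mmp24 these include Mmp1b, Mmp7, Mmp12, Mmp19, Mmp28, Timp3, Timp4, Adamts7, Adamts8 and Adamts9; not every partner is reported here. A symbol table matched 52083 of 55416 identifiers (94.0%).

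Expected counts were rounded and fitted per tissue with edgeR 4.0.16 (R 4.3.3; TMM scaling, filterByExpr, glmQLFTest, two-sided, adjusted over all genes tested), with all 14 libraries in 1 fit for tissue differences and the 6 control libraries for the baseline. The fits were tested on simulated data. CPM use library sizes TMM-scaled within each tissue, so lung and muscle CPM cannot be compared directly. Floors are 3 counts per library, and intervals and floors cover counting error only. Totals ran from 32476194 to 61087315 counts, where 1 library's floor is 0.0488 to 0.116 CPM. No replicate pair was a duplicate (chi-square per degree of freedom of at least 21.3). Alternatives were DESeq2 1.42.0, limma 3.58.1 (voom, or trend on log2 of TPM plus 1 or 0.1, mean TPM of at least 0.1), other scalings and filters, a robust fit, a replicate block, and each library left out.

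Named with full values were called members that averaged 1 CPM or more in some group, all Timp genes, Mmp2, Mmp9 and Mmp14; for partner lists, the 2 genes with the smallest p per tissue. Other members named, such as Mmp12, Mmp15 and Adamts2 in muscle, were picked after their values were seen. Members and lists were chosen with earlier results of these data known.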

Additional observations from a re-analysis of the deposited data

Results flagged for a closer look

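In 31 groups of 5 tumour-bearing lung values, 1 for each member named with full values, the gap of the extreme library to the nearest other was compared with the range (Dixon's 95% limit of 0.71). For independent groups of normally distributed values, chance alone marks about 5%. Here 5 groups were marked. All groups share the same 5 libraries and the values are unlogged CPM, so this count cannot be judged against 5%. Library 3 stood apart for Mmp13, at 219 CPM. Library 2 stood apart for Mmp3 (4.09 CPM), Mmp11 (13.7 CPM), Mmp23 (4.8 CPM) and Timp4 (1.17 CPM), in each case as the highest of the 5. Library 2 also had the highest summed fibroblast markers of the tumour-bearing lungs, 244 CPM against 89.7 to 124 CPM in the other four.

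The tumour effect differed between lung and muscle (interaction test in edgeR, adjusted over all genes) for 20 members. It was more positive in lung by 6.08 for Mmp24, 4.33 for Timp1 and 3.33 for Adamts12. For Adamts16 the fitted difference of 13.20 compares groups at 0 counts, depends on the prior count and is not a size. The effect was more negative in lung for the other 16. Among the MMPs these were Mmp8 (-3.81), Mmp2 (-1.74), Mmp3 (-3.99), Mmp11 (-3.32), Mmp17 (-1.95), Mmp19 (-1.23) and Mmp28 (-1.84). The Mmp8 value rests on 2 counts in control and 23 in tumour-bearing muscle, 19 of them in library 1. Among the inhibitors they were Timp3 (-3.87) and Timp4 (-3.38). Among the ADAMTS genes they were Adamts1 (-3.11), Adamts5 (-1.33), Adamts8 (-6.10), Adamts9 (-3.73), Adamts15 (-5.78), Adamts2 (-2.60) and Adamts17 (-4.95).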

How the results depend on the processing

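In lung, the number of members called was 8 to 11 higher and 18 to 25 lower over all alternatives, and the calls on tissue differences numbered 14 to 26 (20 in the reported fit). In muscle, members higher (2 reported) numbered 0 with upper-quartile scaling and 0 on log2 of TPM plus 1 or 0.1, and 0 to 4 with 1 library left out. Members lower (3 reported) numbered 6 with DESeq2's Wald test, 0 with both TPM fits, 7 without the low-count filter, 7 in 1 fit of all 14 libraries and 0 to 4 with 1 library left out. Members higher in control muscle (6 reported) numbered 1 and 1 in the TPM fits. Whether the replicate numbers pair the samples is not settled. Same-numbered libraries correlated at 0.06, 0.09 and -0.01 in lung and 0.36, -0.04 and 0.42 in muscle. In muscle, control library 1 with tumour-bearing library 3 gave -0.47, and control library 3 with tumour-bearing library 1 gave -0.34. Not every library correlated best with its own number, and a shared replicate effect in muscle remains possible. Mitochondrial genes (8) summed to 101623, 213365 and 330026 CPM in control muscle libraries 1 to 3. In tumour-bearing muscle libraries 1 to 3 they summed to 133311, 136594 and 259571 CPM, and 0 of the 8 were called. The part of this spread in the muscle results was not tested. With the replicate block the members called were 9 and 24 in lung, 2 and 5 in muscle and 17 for the tissue difference, and the genes called in muscle 3303 against 2196. Over all genes, muscle calls also numbered 3657 with DESeq2, 4031 with no filter and 172 on log2(TPM + 1). Log2 changes were recomputed only for the 31 members named with full values. Of these recomputed changes, 1543 kept direction and side of the threshold, 87 lost the call, 38 gained one and 36 turned sign. None of these 36 was called in the reported fit.

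The 36 were as follows, with the range over libraries left out last. Mmp9 in lung was -0.12 and -0.17 on log2 of TPM plus 1 and 0.1 (-0.056 without tumour-bearing library 3, to 0.31). Timp2 in lung turned only with a library left out (-0.20 to 0.10). Mmp28 in muscle was 0.0043 with DESeq2's size factors, 0.0042 with DESeq2, 0.021 with voom, 0.014 without the filter and 0.0012 with the block (-0.28 to 0.22). Adamts1 in muscle was -0.23 with upper-quartile scaling, -0.000609 with voom, -0.058 with a 1 CPM minimum and -0.068 in the fit of 14 libraries (-0.088 to 0.11). Adamts15 in muscle was -0.10 with upper-quartile scaling, -0.21 with voom, -0.0032 and -0.00558 in the TPM fits and -0.13 with the block (-0.68 to 0.44), and Adamts8 ran from -0.40 to 0.75. Tissue differences turned in the TPM fits for Mmp9 (-0.016), Mmp23 (-1.17, past the threshold with limma's adjusted p = 0.0279, and -0.64) and Timp2 (-0.22 and -0.20). With a library left out they ran from -0.041 to 1.10 for Mmp23 and from -1.48 to 0.013 for Adamts14. The cause was not tested.

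Among lung calls of the members named with full values, those of Mmp20, Mmp23 and Timp4 were each lost in 1 to 6 of the alternatives. For Mmp23 the block gave an adjusted p of 0.0528 in edgeR. The lung calls of Mmp16, Mmp27, Adamts19 and Adamts20 were not recomputed gene by gene, nor were the tissue differences of Mmp8 and Adamts16. Among tissue differences, the calls of Mmp2, Mmp17, Mmp24, Mmp19, Mmp28, Timp4, Adamts5 and Adamts17 were lost in at least 1 alternative, most often Adamts5 (14), Mmp19 (10) and Mmp2 (9). Members not called in the reported fit gained a call in some alternatives, among them Mmp13 (7), Mmp10 (4), Mmp7 (3), Mmp20 (3) and Mmp14 (3). Depth limits what can be said of members under about 3 counts per library, among them Mmp1b and Mmp21.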
